A study of Mus musculus with 8 samples.

Results

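Dars, Iars, Lars, Mars and Rars encode the cytosolic aminoacyl-tRNA synthetases for aspartate, isoleucine, leucine, methionine and arginine, and all 5 proteins belong to the multisynthetase complex. They were taken by symbol from the 3278 genes that the authors listed as differing between MIN6-K8 cells treated with 40 µM selenomethionine (SeMet) for 6 days and untreated MIN6-K8 cells. MIN6-K8 is an insulin-secreting mouse insulinoma line, given as wild-type and of the IT6 background strain. SeMet is methionine with selenium in place of sulfur. RNA was sequenced from 4 SeMet libraries and 4 control libraries. All libraries came from a single line. The labels do not say whether replicate libraries are separate cultures, so p-values here measure only the spread between samples, which may be technical. The members were selected on the same normalised counts that are described below, since a gene had to differ between these groups to be listed. Their levels are therefore a description of that contrast and carry no test.

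An aminoacyl-tRNA synthetase joins an amino acid to its tRNA, which the ribosome then reads against the codon. In mammals several cytosolic synthetases are held together by the scaffold proteins encoded by Aimp1, Aimp2 and Eef1e1, whereas others work as free enzymes. The methionyl enzyme supplies both the initiator tRNA and the elongator tRNA for internal methionine codons, and it also accepts SeMet, which is how selenium enters proteins at methionine positions. Genes of many cytosolic synthetases are targets of ATF4, the transcription factor of the amino acid response.

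Under SeMet 4 members were higher and 1 was lower. Sequences upstream of the members are shown as a description, and their part in these directions was not tested. RefSeq promoter entries, which run from 250 bases before to 50 bases after a gene's start on GRCm38.p6, were matched for 3 of the 5 members, Dars, Iars and Mars. Each line gives 120 bases, 5′ to 3′ on the strand of the gene, that end just before whichever of the RefSeq and GENCODE starts lies farther upstream. For Mars both starts fall on the same base, for Dars the line ends at the RefSeq start, and for Iars it ends at the GENCODE start, 30 bases before the RefSeq start. Capitals mark matches that lie wholly within a line to TGATGNAA (the core of the composite site that ATF4 binds with C/EBP proteins), CACGTG (an E-box), CCAAT or GGGCGG, each searched on both strands.
Mars, chr10:127311787-127311906, minus strand: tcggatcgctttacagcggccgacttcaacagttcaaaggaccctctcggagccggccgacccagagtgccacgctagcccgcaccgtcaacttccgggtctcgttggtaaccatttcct
Iars, chr13:49681980-49682099, plus strand: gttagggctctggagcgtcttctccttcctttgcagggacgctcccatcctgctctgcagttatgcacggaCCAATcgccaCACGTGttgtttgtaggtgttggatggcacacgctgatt
Dars, chr1:128417417-128417536, minus strand: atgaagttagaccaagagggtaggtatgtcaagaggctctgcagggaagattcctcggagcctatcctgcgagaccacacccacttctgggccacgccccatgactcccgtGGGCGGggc

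The only TGATGNAA match among these 3 members lay just inside the Iars transcript, from base 8 after its RefSeq start. It reads in the reverse direction in this 30-base stretch.
Iars, chr13:49682130-49682159, plus strand: gtcagtaTTGCATCAcctccagacgcggaa
Of 32851 promoter entries of the same length, 3.97% held TGATGNAA, 7.15% held CACGTG, 37.4% held CCAAT and 35.7% held GGGCGG. Counted from the RefSeq start, here and below, Iars held CACGTG at base -69 and CCAAT at bases -79 and -33, the last of which runs past the end of the line shown. Mars held CCAAT at base -222, outside the stretch shown. Dars held GGGCGG at base -9 and no match to the other letters. None of these matches overlapped another. Of the 7 listed free cytosolic synthetases, 5 had a promoter entry, and TGATGNAA occurred in 4 of them, Aars, Gars, Tars and Yars. In the same 5 genes GGGCGG occurred in 4, CCAAT in 3 and CACGTG in 2. Of 20 listed genes of the amino acid stress response, described below, 18 had an entry. TGATGNAA occurred in 5 of those 18, CACGTG in 1, CCAAT in 14 and GGGCGG in 12. A match describes letters and does not show that a factor binds.

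Values are the authors' normalised counts, which behave as gene counts that were scaled once per library. The listed genes held 8544454 to 11144953 reads per library, and each member 1062 to 2916 reads per library. Counting error alone was therefore between 1.85% and 3.07% of a member's value. The coefficient of variation between libraries was 2.00% to 5.41% under SeMet and 3.28% to 5.23% in controls. The marker genes fixed for beta cells were listed in full, 10 of 10, and 1 was called higher and 9 lower in the limma fit over the listed genes. That fit called 47.0% of all listed genes higher and 53.0% lower. Adjusted over all 55450 annotated genes, 1 marker was higher and 7 were lower. The groups did not overlap for 8 of the 10 markers, against 85.8% of all listed genes. The higher marker was Iapp, islet amyloid polypeptide. Their summed level, most of it from Ins2, Ins1 and Iapp, was 1886197 to 2105938 under SeMet and 2104324 to 2333517 in controls, with a slight overlap. Of markers of other islet cells 2 of 6 were listed (Gcg and Ppy), with sums of 763 to 938 under SeMet and 352 to 464 in controls. Of 6 stromal markers only Col1a1 was listed, with 2.78 to 9.57 normalised counts under SeMet and 11.1 to 20.1 in controls. None of the 8 acinar, 4 endothelial and 6 immune markers was listed. Whether these markers had a part in the levels below was not tested. In RNA from whole cultures, a change in the cells present and a change in RNA per cell cannot be told apart.

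Mars, the gene of the methionyl enzyme, had the largest difference between the groups. Mars (ENSMUSG00000040354) lies on chromosome 10, 127296221 to 127311786, of mm10, the assembly also called GRCm38. It had 2630, 2535, 2551 and 2701 normalised counts in SeMet libraries 1 to 4, against 2101, 2319, 2148 and 2193 in control libraries 1 to 4. Every SeMet library was above every control library, with a gap of 216 between the lowest SeMet and the highest control value. The means were 2604 ± 76.8 under SeMet and 2190 ± 93.9 in controls (SD, n = 4 each), 18.9% higher under SeMet. The log2 fold change was 0.25 ± 0.04 (SE of the limma fit, on the log2(value + 1) scale, here and below). Exons of Mars overlap those of Ddit3, which encodes the stress-induced factor CHOP, on the opposite strand over 68 bases, 1.99% of the exon length of Mars, where reads cannot be told apart without strand. Ddit3 was not among the listed genes and was not analysed here.

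Lars and Iars, the enzymes for the branched amino acids leucine and isoleucine, were higher under SeMet by similar amounts. In human cells the leucyl enzyme has also been described as a leucine sensor that acts on mTORC1, a kinase complex that controls growth. Lars (ENSMUSG00000024493, chromosome 18, 42202298 to 42262194) had 1530, 1533, 1596 and 1541 normalised counts in SeMet libraries 1 to 4, against 1399, 1363, 1300.0 and 1300.3 in control libraries 1 to 4. Its groups did not overlap, and SeMet library 3 stood above the other SeMet libraries. Lars averaged 1550 ± 31.1 under SeMet and 1341 ± 49.0 in controls (SD, n = 4 each), a log2 fold change of 0.21 ± 0.04.

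Iars (ENSMUSG00000037851, chromosome 13, 49682100 to 49734267) had 1700.0, 1743, 1907 and 1861 normalised counts in SeMet libraries 1 to 4, against 1650, 1654, 1539 and 1498 in control libraries 1 to 4. The groups did not overlap, but SeMet library 1 was 45.6 above control library 2, and Iars had the widest spread of the 5 genes under SeMet. Iars averaged 1803 ± 97.5 under SeMet and 1585 ± 79.2 in controls (SD, n = 4 each), a log2 fold change of 0.19 ± 0.05.

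Rars, the arginyl enzyme, was the member whose groups came closest. Rars (ENSMUSG00000018848, chromosome 11, 35808381 to 35834506) had 1449, 1419, 1431 and 1369 normalised counts in SeMet libraries 1 to 4, against 1221, 1233, 1260 and 1367 in control libraries 1 to 4. SeMet library 4 was only 2.57 above control library 4, which is less than the counting error of either value. Control library 4 stood above the other controls. Rars averaged 1417 ± 34.3 under SeMet and 1270 ± 66.4 in controls (SD, n = 4 each), a log2 fold change of 0.16 ± 0.05. Without control library 4 it was 0.19.

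Dars, the aspartyl enzyme, was the exception in direction. It is also the only class II synthetase of the 5, the other 4 having the class I fold. Dars (ENSMUSG00000026356, chromosome 1, 128363707 to 128417368) had 2114, 2105, 2075 and 1973 normalised counts in SeMet libraries 1 to 4, against 2344, 2359, 2237 and 2210 in control libraries 1 to 4. Every SeMet library was below every control library, by at least 95.3. Dars averaged 2067 ± 64.7 under SeMet and 2288 ± 75.1 in controls (SD, n = 4 each), a change of -9.64% and a log2 fold change of -0.15 ± 0.04.

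**Figure D1:**
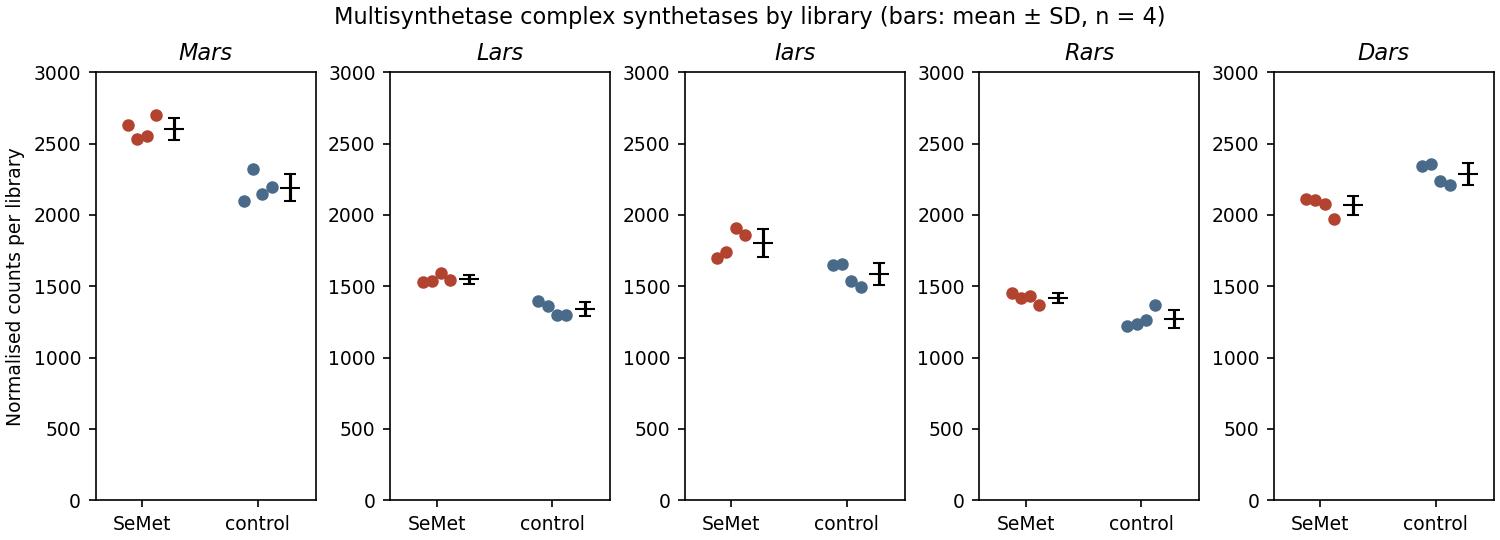
Normalised counts of each member (vertical axis, from 0) in the 4 SeMet and the 4 control libraries, with 1 point per library and the mean ± SD beside the points. Mars, Lars, Iars and Rars sit higher under SeMet and Dars sits lower, and the Rars groups nearly touch at 1369 under SeMet and 1367 in controls.

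The 4 SeMet libraries did not overlap the 4 control libraries for any of the 5 members, and the same held for 85.8% of all listed genes, so it sets nothing apart in a table chosen for differing. The differences were small for the table. The absolute log2 fold change of every member was below the median of the listed genes, 0.25 when rounded, and Mars came nearest, with 49.2% of listed genes showing a smaller change. For Dars that share was 10.9% and for Rars 15.9%. The median log2 fold change of the 5 members was 0.19, against -0.13 over all listed genes.

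Ratios between members within a library do not depend on how libraries were scaled. Mars over Dars was 1.24, 1.20, 1.23 and 1.37 in SeMet libraries 1 to 4, against 0.896, 0.983, 0.960 and 0.992 in control libraries 1 to 4. Without correction for length, Mars therefore had more reads than Dars in every SeMet library and in no control library. Iars over Dars was 0.804 to 0.943 under SeMet and 0.678 to 0.704 in controls. Lars over Dars was 0.724 to 0.781 under SeMet and 0.578 to 0.597 in controls. Rars over Dars was 0.674 to 0.694 under SeMet and 0.521 to 0.618 in controls. Summed over the 5 members, the level was 9441 ± 92.7 under SeMet and 8673 ± 195 in controls (SD, n = 4 each), 8.85% higher under SeMet. Without Dars the sum was 15.5% higher.

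**Figure D2:**
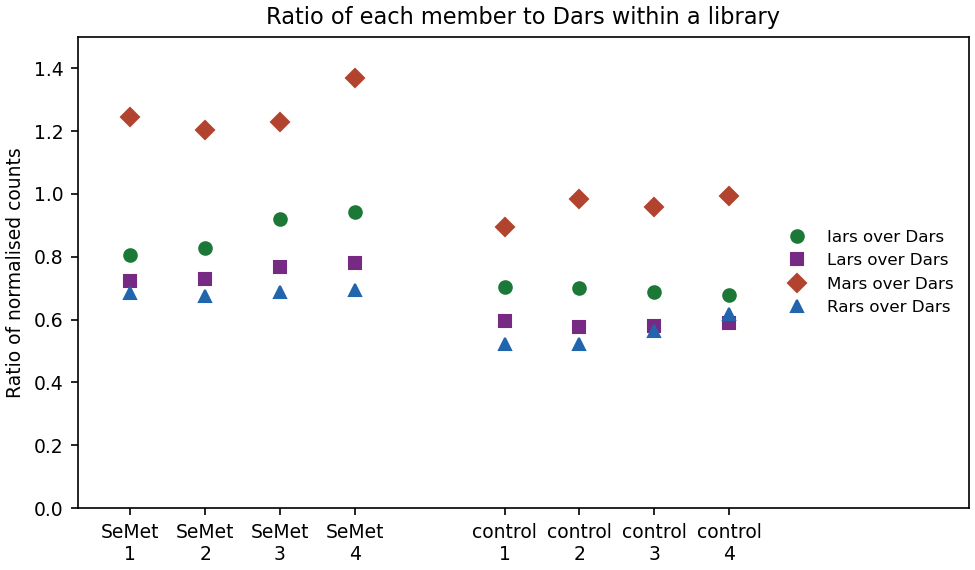
Ratio of the normalised counts of Mars, Iars, Lars and Rars to those of Dars (vertical axis) within each of the 8 libraries, SeMet libraries on the left and controls on the right. Mars over Dars lies at 1.20 to 1.37 under SeMet and at 0.896 to 0.992 in controls, and the other ratios are likewise higher under SeMet.

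Levels of different genes were set side by side per kilobase of the longest coding transcript in GENCODE M21. Dars had 950 ± 29.7 normalised counts per kilobase under SeMet and 1052 ± 34.5 in controls, and Mars had 879 ± 25.9 and 739 ± 31.7 in the same groups (SD, n = 4 each, here and in the next sentences). Rars followed at 672 ± 16.3 under SeMet and 602 ± 31.5 in controls. Iars had 407 ± 22.0 under SeMet and 358 ± 17.9 in controls. Lars was lowest, at 389 ± 7.80 under SeMet and 337 ± 12.3 in controls. The order was the same in both groups, but Iars and Lars overlapped in both, and Dars and Mars overlapped under SeMet. Per kilobase of all annotated exons, which include retained introns, Mars stood above Dars in both groups, at 761 against 474 under SeMet and 640 against 525 in controls, so the order of those genes depends on the length used. In the summed level per kilobase of coding transcript, Dars made up 28.8% ± 0.83 under SeMet and 34.1% ± 0.74 in controls, and Mars 26.7% ± 0.87 under SeMet and 23.9% ± 0.73 in controls.

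The coding sequences of the members differ in their share of methionine codons and of codons for the amino acid each enzyme charges. Mars has 11 methionine codons of 910, or 1.21%, and 11.5% of the 3090 listed genes with a usable coding sequence had a lower share. Lars has 39 of 1178, or 3.31%, above the share of 87.2% of those genes, whose median was 2.18%. Iars, Rars and Dars lay nearer the median, at 2.06%, 2.73% and 2.40%. For the amino acid each enzyme charges, Dars has 6.19% aspartate codons against a median of 4.90%, and Iars 5.23% isoleucine codons against 4.23%. Lars has 9.51% leucine codons against 9.81%, and Rars 5.91% arginine codons against 5.51%.

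The listed genes nearest to the mean profile of the 5 members were Pacs1, Xrn2, Rtn3, Tedc1 and Sec31a. That mean mixes 4 members that rose with Dars, which fell, so nearness to it is not nearness to any 1 member. The log2 fold changes were 0.14 for Pacs1 and for Xrn2, 0.12 for Rtn3, 0.17 for Tedc1 and 0.09 for Sec31a. Likeness was the root mean square distance between log2 levels over the 8 libraries, each gene centred on its own mean. Pacs1, which sorts proteins at the trans-Golgi network, was nearest at 0.020 and had 2038 ± 52.8 normalised counts under SeMet and 1849 ± 35.4 in controls (SD, n = 4 each). Xrn2, a nuclear exoribonuclease, lay at 0.021, and Rtn3, a reticulon of the endoplasmic reticulum, at 0.023. Tedc1 lay at 0.025, as did Sec31a, which encodes a coat protein of vesicles that leave the endoplasmic reticulum. The median distance of 3273 listed genes was 0.173. The members themselves lay farther from their mean than these genes, from 0.046 for Lars to 0.143 for Dars.

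The rest of the complex could not be followed. None of its other 6 components, the synthetase genes Eprs, Kars and Qars and the scaffold genes Aimp1, Aimp2 and Eef1e1, was among the listed genes, and they were not analysed here. For the genes named from here on, the limma test over the whole table applies, with Benjamini-Hochberg adjusted p-values. It called 100% of the listed genes when rounded, 47.0% higher and 53.0% lower, so a call adds little to being listed. A stricter adjustment ran over all 55450 annotated genes, with unlisted genes at a p of 1, and called 71.4% of the listed genes. It is called the wider adjustment below.

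The free cytosolic synthetases were the closest family. Of 12 such genes 7 were listed, and all 7 rose under SeMet, also with the wider adjustment. The log2 fold changes had a median of 0.24 and ran from 0.13 for the seryl enzyme gene Sars to 0.35 for the threonyl enzyme gene Tars. Tars had 1705 ± 56.0 normalised counts under SeMet and 1343 ± 59.2 in controls (SD, n = 4 each). Aars, the alanyl enzyme, had 6499 ± 49.0 under SeMet and 5364 ± 224 in controls, a log2 fold change of 0.28 ± 0.04, and other genes' exons overlap 15.1% of it. Cars, the cysteinyl enzyme, rose by 0.25 ± 0.05 on the log2 scale. Mars, Lars, Iars and Rars lay within the range of the free enzymes and Dars lay outside it, but the difference between the families was not tested.

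**Figure D3:**
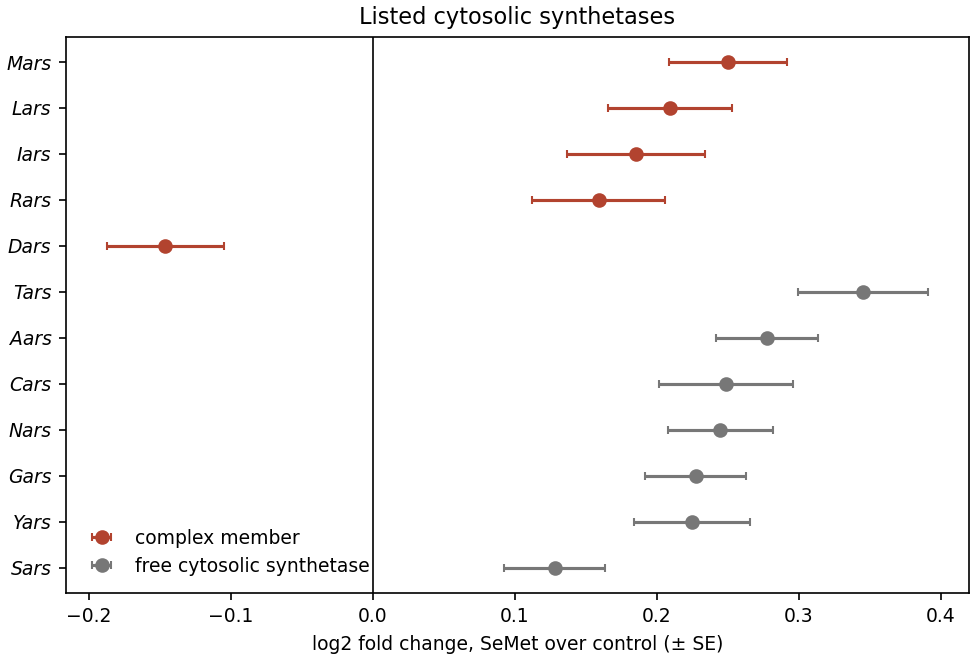
log2 fold change of SeMet over control (horizontal axis, ± SE of the limma fit) for the 5 complex members above and the 7 listed free cytosolic synthetases below. Dars, at -0.15, is the only one left of 0, and the other 11 lie between 0.13 and 0.35.

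Of 17 mitochondrial synthetases only the isoleucyl and leucyl genes Iars2 and Lars2 were listed. Both fell over the listed genes and neither passed with the wider adjustment. Iars2 had 1128 ± 34.5 normalised counts under SeMet and 1252 ± 66.4 in controls (SD, n = 4 each), a log2 fold change of -0.15 ± 0.05, opposite in sign to Iars. Exons of other genes overlap 24.2% of Iars2. Lars2 had 8321, 5693, 6458 and 3341 normalised counts in SeMet libraries 1 to 4, against 43734, 8153, 20388 and 41889 in control libraries 1 to 4. Its groups overlapped, and its log2 fold change was -2.05 ± 0.62 (limma adjusted p = 0.0158 over the listed genes and 0.267 with the wider adjustment). The noncoding RNA Gm26917 had the same order of libraries as Lars2 within each group. It had 1410, 1181, 1341 and 1136 in SeMet libraries 1 to 4, against 4302, 1072, 2116 and 3879 in control libraries 1 to 4. The groups of Gm26917 overlapped, and it was not called over the listed genes (limma adjusted p = 0.0775). Its part in the Lars2 values was not tested. Lars varied far less than Lars2, at 1300.0 to 1399 across the same controls.

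**Figure D4:**
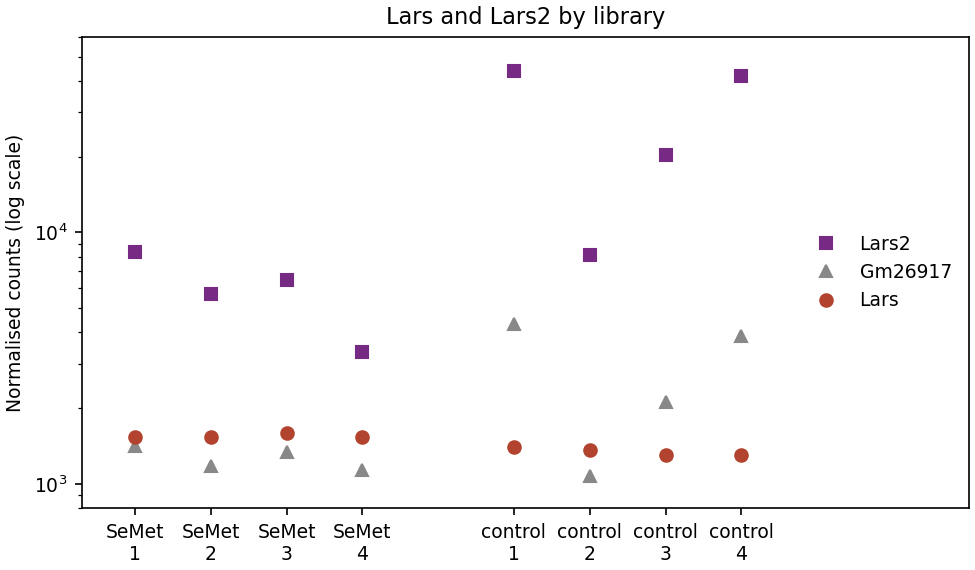
Normalised counts on a log scale (vertical axis) of Lars, its mitochondrial counterpart Lars2 and the noncoding RNA Gm26917 in each of the 8 libraries, SeMet on the left. Lars stays between 1300.0 and 1596 in all libraries, while Lars2 spans 8153 to 43734 among the controls.

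Genes of the amino acid stress response, the pathway of ATF4, were mostly higher. Of 28 such genes 20 were listed, 18 rose and 2 fell (18 and 1 with the wider adjustment), with a median log2 fold change of 0.39 against -0.13 for all listed genes. The 2 that fell were Ddit4, with a log2 fold change of -0.70 ± 0.12, and Slc38a2, at -0.13 ± 0.04. Slc38a2 did not pass with the wider adjustment. Atf3, a stress-induced transcription factor, had 92.0 ± 14.1 normalised counts under SeMet and 36.5 ± 4.83 in controls (SD, n = 4 each), a log2 fold change of 1.31 ± 0.16. The serine synthesis gene Phgdh rose by 0.83 ± 0.08 on the log2 scale, and the cystine transporter gene Slc7a11 by 1.43 ± 0.34 at a low level of 34.1 ± 14.0 under SeMet and 11.6 ± 4.34 in controls, with overlapping groups.

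Transporters of the amino acids that the members charge went both ways. Of 15 genes 7 were listed, 4 rose and 3 fell (4 and 2 with the wider adjustment). Slc7a1, a carrier of arginine and other cationic amino acids, had 2342 ± 109 normalised counts under SeMet and 1733 ± 70.2 in controls (SD, n = 4 each), a log2 fold change of 0.43 ± 0.04. Slc7a2, another cationic carrier, had 5471 ± 357 under SeMet and 8472 ± 379 in controls, a log2 fold change of -0.63 ± 0.04. Other genes' exons overlap 6.95% of Slc7a2. Slc7a8, which exchanges neutral amino acids such as leucine, fell by 0.42 on the log2 scale. Of the other listed transporters, Slc43a2, Slc7a5 and Slc1a2 rose by 0.18, 0.15 and 0.42, and Slc38a2 fell by 0.13.

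Steps next to charged tRNA also split. Of 17 genes of initiator tRNA use and eIF2 control 2 were listed and both rose. Eif2s1, the alpha subunit of eIF2, which carries the initiator methionyl tRNA to the ribosome, had 2482 ± 141 normalised counts under SeMet and 2160 ± 47.5 in controls (SD, n = 4 each), and Eif2s2, its beta subunit, 2080 ± 103 and 1912 ± 39.5 in the same groups. Eif2s2 did not pass with the wider adjustment (limma adjusted p = 0.193). Of 7 genes of elongation factors and the kinase of Eef2, 3 were listed and all 3 fell. Eef2, which moves the ribosome along the message, had 44926 ± 1420 under SeMet and 53022 ± 4440 in controls, and its kinase gene Eef2k 214 ± 9.60 and 289 ± 22.8 in the same groups. Eef1a1, which brings charged tRNA to the ribosome, had a log2 fold change of -0.13 ± 0.04 and missed the threshold with the wider adjustment (limma adjusted p = 0.114).

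Of 25 genes of methionine metabolism only Mat2b and Ahcyl1 were listed. Mat2b, a regulatory subunit of the enzyme that makes S-adenosylmethionine, had a log2 fold change of -0.15 ± 0.05, and Ahcyl1, a relative of the S-adenosylhomocysteine hydrolase, -0.09 ± 0.03. Both fell over the listed genes and neither passed with the wider adjustment (limma adjusted p = 0.115 for Mat2b and 0.202 for Ahcyl1). Of 25 genes of amino acid sensing by mTORC1 10 were listed, 5 rose and 5 fell (4 and 4 with the wider adjustment), with a median log2 fold change of 0.01. Wdr24 and Seh1l, parts of the GATOR2 complex that relays amino acid signals, fell by 0.27 and 0.26 on the log2 scale. Sec13, another part of GATOR2, went the other way, at 0.13, and passed over the listed genes but not with the wider adjustment. Sesn3, a sestrin, rose by 0.22.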

How the data were processed

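The 4 SeMet and 4 control libraries were grouped by sample title. The submitters' processing notes name the aligner STAR, the read counter featureCounts and the build mm10. Versions, strand settings, the scaling tool and the rule that chose the listed genes were not given in the sources used here. What the authors deposited is a signal, taken as counts that they scaled once per library, because 100% were whole multiples of 1 step (0.885 to 1.15; relative tolerance 1e-06). The limma test (version 3.58.1, with statmod 1.5.0 in R 4.3.3; trended, robust variance) ran on log2(value + 1), without filter or further scaling, at a Benjamini-Hochberg adjusted p of 0.05 over the 3278 listed genes. Adjustment over 55450 annotated genes was added after seeing the data. Of 3278 identifiers 3276 matched a GENCODE M21 symbol. Promoter sequences are RefSeq's, GRCm38.p6. Members and gene lists were chosen with earlier results of these data known. Genes named are the members, every listed component of the complex, up to 3 called genes with the largest change per other list, and the 5 nearest profiles. Gm26917, Sars, Sec13, Iapp, Ddit4, Slc38a2, Slc43a2, Slc7a5, Slc1a2 and the genes named for a promoter match were added after their values were seen. No 2 libraries held identical values. Alternatives were another pseudocount (10), a filter (mean of 50), other scalings, ordinary variance, a replicate block and leaving out each library.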

Additional observations from a re-analysis of the deposited data

Results flagged for a closer look

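Of 66 sets of 4 libraries examined, 4 held a library far from the other 3; chance gives about 1 in 20. Lars had 1596 normalised counts in SeMet library 3, against 1530 to 1541 in the other SeMet libraries. Iars2 had 1179 in SeMet library 2, against 1106 to 1114. Tars had 1622 in SeMet library 2, against 1730 to 1736. Tedc1 had 1285 in control library 3, against 1346 to 1347.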

How the results depend on the processing

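Under each of 14 other settings (pseudocount, filter, scaling, variance, block and left-out libraries), every one of the 5 members kept its direction. As the groups were apart from the start, only the 2 rescalings could have changed a direction or made groups overlap. Under both the groups of all 5 stayed apart. The rescaling factors came from the listed genes alone, which were chosen for differing, so they cannot check the authors' scaling. The median log2 fold change of the members, 0.19, was 0.23 after median-ratio rescaling and 0.22 after trimmed-mean rescaling, and 0.16 to 0.21 when each library was left out. The rescalings moved every member upward, Dars to -0.10 at most and Lars to 0.25 with the median ratio. Without 1 library each, Dars ranged from -0.16 to -0.12, Iars from 0.16 to 0.21, Lars from 0.20 to 0.23, Mars from 0.23 to 0.28 and Rars from 0.14 to 0.19. Of the distinct listed genes in the pathway lists, 33 were called higher and 16 lower; adjusted over all annotated genes, an alternative added after seeing the data, 31 were higher and 9 lower. With the replicate number as a block, 1539 listed genes were higher and 1733 lower, against 1541 and 1736 without it. Same-numbered libraries correlated at 0.01, 0.15, 0.02 and -0.01 in their deviations, and 2 of 8 libraries correlated best with their own number. The labels do not state a pairing, and correlations over genes selected for the contrast cannot settle whether there was any. Lists of selected genes allow no statement about unlisted ones. At 1062 to 2916 reads per member and library, differences of a few percent between single libraries are within counting error.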
